A study of Mus musculus with 2 samples.

Results

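Core histone genes encode the H2A, H2B, H3 and H4 proteins around which nuclear DNA is wrapped, and the 61 genes described here are the protein coding genes of the GENCODE M21 annotation of mm10 whose symbols start with Hist1h2, Hist1h3, Hist1h4, Hist2h, Hist3h or Hist4h. They were taken from 21938 coding genes on chromosomes 1 to 19, X and Y. By type they are 18 H2A, 18 H2B, 12 H3 and 13 H4 genes, and by cluster 48 Hist1, 10 Hist2, 2 Hist3 and 1 Hist4 gene. The Hist1 genes lie on chromosome 13, the Hist2 genes on chromosome 3, the Hist3 genes on chromosome 11 and Hist4h4 on chromosome 6. The data are a peak list from chromatin immunoprecipitation and sequencing with a rabbit polyclonal antibody, made in-house, against H1T. This testis-specific linker histone is called H1t here. The cells were spermatogenic cells isolated from the testes of ICR mice, an outbred stock, at 6 weeks of age, and how many animals were used is not stated in the labels. The 2 libraries of the series are 1 of H1t and 1 of input, from the same kind of cells without antibody, and only the H1t peaks are described. A single library has no replicate error, so every value below is a description without a test. The preparation mixes germ cell stages, and its makeup was not checked against markers because expression was not measured.

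Linker histones bind the DNA that enters and leaves the nucleosome, the particle formed by the core histones. Most core histone genes are short, lack introns, lie in clusters and are transcribed while DNA is being replicated, and their transcripts end in a stem-loop in place of a poly(A) tail. The testis-specific members Hist1h2aa and Hist1h2ba encode TH2A and TH2B, which replace other H2A and H2B proteins during spermatogenesis. H1t is itself encoded in the Hist1 cluster and is made in spermatocytes.

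H1t peaks lay over the coding sequence of a minority of core histone genes. These genes were 5 of 18 H2A, 5 of 18 H2B, 2 of 12 H3 and 1 of 13 H4 genes. A peak overlapped the gene by at least 1 bp in 13 of 61 core histone genes (21.3%), while 48.6% of all coding genes had one. Core histone genes are short, with a median of 528 bp against 17425 bp for all coding genes. Among genes of at most 2 kb the counts were 11 of 53 core histone genes (20.8%) and 275 of 1535 other coding genes (17.9%). The share of core histone genes with a peak was thus close to that of other short genes. These short sets still differed in median length, 488 bp for core histone genes and 1073 bp for the others. Their median shares of G and C bases in coding sequence were 66.7% and 52.7%. A peak midpoint within 1 kb of the gene start, the 5′ end of the annotated gene, was found for 19 core histone genes (31.1%), against 23.0% of all coding genes. Among genes of at most 2 kb, 14 of 53 core histone genes (26.4%) and 17.4% of the others had one. These 19 genes shared 13 peaks, because neighbouring genes lie within 1 kb of each other. Within 10 kb of the gene, 38 core histone genes had a peak (62.3%), against 68.4% of all coding genes, and these 38 genes shared 18 peaks. Among genes of at most 2 kb the shares were 58.5% of core histone genes and 48.5% of the others. The median density over the gene and its flanks was 4.76 peaks per 100 kb, against 2.49 for all coding genes, and the means were 3.85 and 3.60. Among genes of at most 2 kb the median was 4.82 for core histone genes and 0 for the others, which in so short a window is the value of a single peak or of none. The means of these short genes had the opposite order, with 3.75 peaks per 100 kb for core histone genes and 4.17 for the others.

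The 4 types differed in these counts. A peak in the gene was found in 5 of 18 H2A genes (27.8%), 5 of 18 H2B genes (27.8%), 2 of 12 H3 genes (16.7%) and 1 of 13 H4 genes (7.69%). The share was 48.6% for all coding genes and 17.9% for other coding genes of at most 2 kb. At the start the counts were 8 H2A genes (44.4%), 8 H2B genes (44.4%), 2 H3 genes and 1 H4 gene. Of all coding genes, 23.0% had a start peak. The H2A and H2B counts include 6 genes with no peak in the gene. Their start peak lay in a neighbouring H2A or H2B gene transcribed the other way, so the same peak was counted for both types. No H3 or H4 gene had a start peak without one in the gene. Within 10 kb H2A, H2B and H3 genes had equal shares (66.7%), and 6 of 13 H4 genes had a peak (46.2%). All of these H4 genes except Hist4h4 had theirs outside the gene. With so few genes and 1 library, the differences between types were not tested.

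**Figure D1:**
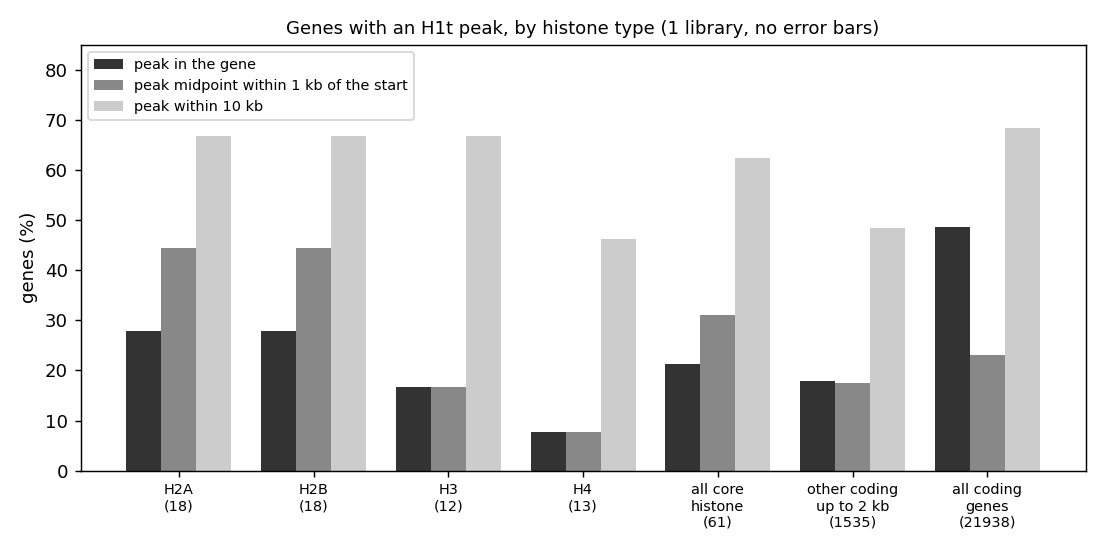
Share of genes (%) with an H1t peak in the gene (black), with a peak midpoint within 1 kb of the start (dark grey) and with a peak within 10 kb (light grey), for each core histone type, all core histone genes, other coding genes of at most 2 kb and all coding genes, with the number of genes in parentheses. H4 genes had the lowest share of the 4 types, with a peak in 7.69% of the genes, against 27.8% for both H2A and H2B.

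Each of the 13 peaks overlapped a single core histone gene and sat over its coding part. Their midpoints lay between 136 and 405 bp downstream of the gene start, with a median of 201 bp, and none lay upstream. The upstream edge had a median of -83 bp, counted from the start in the direction of transcription, and the downstream edge a median of 486 bp. In 11 of the 13 genes the peak covered the start itself, and in 12 it covered at least 90% of the coding sequence. The median covered share of the coding sequence was 100%. The exceptions at the start were Hist1h2ba, whose peak began 33 bp downstream of it, and Hist2h3c1, whose peak began 129 bp downstream and covered 88.4% of the coding sequence. Peaks were narrow, with a median width of 576 bp in core histone genes, against 700 bp over all 76434 peaks on these chromosomes.

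**Figure D2:**
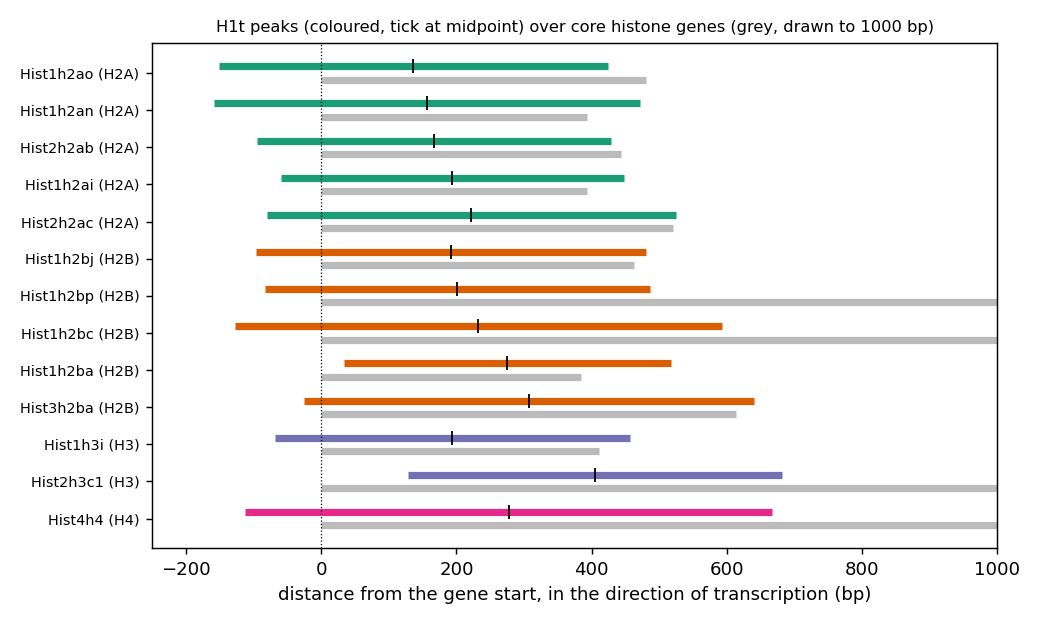
Position of the 13 H1t peaks that overlap a core histone gene, one row per gene, on an axis of distance from the gene start in bp. Coloured bars are peaks, with a tick at the midpoint, and grey bars are the genes, drawn up to 1000 bp. All 13 midpoints lie downstream of the start, between 136 and 405 bp.

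The authors' score of these peaks was low within the list. It ran from 50.83 to 159.14 with a median of 66.17, against a median of 73.99 for all peaks, and 2 of the 13 reached that median. This score was assigned to each peak by the authors, and the lowest in the list is 50. The strongest peak was that of Hist4h4, and 88.9% of all peaks had a lower score. Next came the peak in Hist1h2bc (100.28), which exceeded 70.8% of the list, and the peak in Hist2h2ac (72.79). With peaks of at least the median score, 2 core histone genes had a peak in the gene, 3 at the start and 6 within 10 kb.

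Hist4h4 encodes an H4 protein outside the large clusters, on chromosome 6 (136801553 to 136804415, minus strand). Its peak at 136803748 to 136804528 was 781 bp wide, scored 159.14 and covered its whole coding sequence, from -113 to 667 bp around the gene start. It was the only H4 gene of 13 with a peak in the gene, and 0 of 11 Hist1 H4 genes had one. Hist4h4 was also the core histone gene that shared the shortest exact stretches of coding sequence with the others. No stretch of 36 bases of its coding sequence occurred in another core histone gene, and its longest run of bases shared with one was 32 bp. In the other 12 H4 genes the share of 36-base stretches found in another core histone gene ran from 10.9% to 100%. The first 120 coding bases of Hist4h4 and of Hist1h4a, an H4 gene with no peak within the gene, are given to show how far these copies differ. Capitals mark the bases at which they differ, and positions count from the start codon.
Hist4h4 coding bases 1 to 120, chr6:136804260-136804379, minus strand: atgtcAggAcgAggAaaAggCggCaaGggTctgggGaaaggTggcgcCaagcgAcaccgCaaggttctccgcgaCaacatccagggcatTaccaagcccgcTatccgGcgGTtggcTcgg
Hist1h4a coding bases 1 to 120, chr13:23761038-23761157, minus strand: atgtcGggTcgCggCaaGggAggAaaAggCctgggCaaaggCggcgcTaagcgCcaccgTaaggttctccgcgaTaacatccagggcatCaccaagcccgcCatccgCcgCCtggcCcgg
They differed at 21 of these bases, and at 41 of all 309 coding bases (86.7% identity).

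Sequence shared between copies was common among core histone genes, and reads from a shared stretch match several genes equally well. The labels do not say how such reads were treated. For 13 core histone genes every 36-base stretch of the coding sequence occurred in another core histone gene. Of these, 3 had a peak in the gene (23.1%), against 10 of the 48 genes with at least 1 stretch of their own (20.8%). The peak-bearing genes of this kind were Hist1h2ao, Hist1h2bc and Hist2h3c1. Hist1h2ao and Hist1h2ap, H2A genes of the same run, have identical coding sequences. Hist1h2ao had a peak (score 56.41), and Hist1h2ap had none within 10 kb. Hist2h3c1 likewise had a peak (71.93), while Hist2h3c2, whose 408 coding bases all occur within the 543 annotated for Hist2h3c1, had none in the gene. The identical pair Hist2h2aa1 and Hist2h2aa2 had no peak in either gene, and neither did the identical H4 pair Hist1h4m and Hist1h4n. Nor did the identical H2B pair Hist1h2bq and Hist1h2br, of which Hist1h2bq had the peak of Hist1h2ao near its start and Hist1h2br none. The part of shared sequence in these differences was not tested.

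Of the 18 H2A and 18 H2B genes, 12 of each stood head to head in pairs, transcribed away from each other from starts 175 to 305 bp apart. In these pairs the intervening sequence serves both genes as promoter. A peak lay in the H2A gene alone in 3 pairs, in the H2B gene alone in 3 pairs, in both genes in 1 pair and in neither in 5 pairs. The H2A side carried it in Hist1h2ai with Hist1h2bl (57.01), Hist1h2ao with Hist1h2bq (56.41) and Hist2h2ac with Hist2h2be (72.79). The H2B side carried it in Hist1h2bj with Hist1h2ag (62.67), Hist1h2bc with Hist1h2ac (100.28) and Hist1h2ba with Hist1h2aa (52.95). The pair with a peak in each gene was Hist1h2an (70.02) and Hist1h2bp (50.83). Coding GC content was higher in the H2A gene than in the H2B gene in all 12 pairs, and its relation to the side of the peak was not tested. Outside such pairs, 1 of 6 H2A genes (Hist2h2ab, 55.33) and 1 of 6 H2B genes (Hist3h2ba, 66.17) had a peak in the gene.

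The sequence before the start shows how far the peaks reach into these promoters. The 200 bases upstream of the RefSeq start, read from RefSeq on GRCm38.p6, the assembly of mm10, are given for 4 genes: Hist4h4 with the strongest peak, Hist2h2ac and Hist1h2an with a peak in the gene, and Hist1h2ac, whose partner Hist1h2bc carries the peak. Capitals mark bases under an H1t peak.
Hist4h4 upstream, chr6:136804432-136804631, minus strand: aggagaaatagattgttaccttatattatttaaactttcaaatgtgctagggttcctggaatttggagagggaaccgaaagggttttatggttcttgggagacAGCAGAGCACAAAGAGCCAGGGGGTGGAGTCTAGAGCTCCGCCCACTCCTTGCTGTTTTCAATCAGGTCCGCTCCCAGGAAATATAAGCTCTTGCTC
Hist2h2ac upstream, chr3:96220881-96221080, minus strand: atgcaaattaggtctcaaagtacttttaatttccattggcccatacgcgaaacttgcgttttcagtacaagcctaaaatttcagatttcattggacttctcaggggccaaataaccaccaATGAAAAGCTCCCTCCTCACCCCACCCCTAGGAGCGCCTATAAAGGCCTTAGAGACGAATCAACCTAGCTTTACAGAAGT
Hist1h2an upstream, chr13:21787249-21787448, minus strand: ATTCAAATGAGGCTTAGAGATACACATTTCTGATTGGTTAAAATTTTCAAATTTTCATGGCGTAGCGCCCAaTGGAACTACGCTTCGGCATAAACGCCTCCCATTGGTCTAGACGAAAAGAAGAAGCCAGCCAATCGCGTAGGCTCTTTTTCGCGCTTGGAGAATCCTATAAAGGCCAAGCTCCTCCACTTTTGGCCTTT
Hist1h2ac upstream, chr13:23683960-23684159, minus strand: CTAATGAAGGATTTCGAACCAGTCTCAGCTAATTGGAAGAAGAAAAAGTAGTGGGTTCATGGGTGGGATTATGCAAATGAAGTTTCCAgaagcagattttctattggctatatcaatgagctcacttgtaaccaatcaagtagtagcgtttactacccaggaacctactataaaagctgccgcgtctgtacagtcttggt
In Hist4h4 the nearest 97 bases lay under its peak, and in Hist2h2ac the nearest 80. In Hist1h2an 199 of the 200 bases were covered, by its own peak and by that of Hist1h2bp, with 1 base between the peaks. In Hist1h2ac the 88 covered bases were the far ones, next to the start of Hist1h2bc, and the bases nearest to its own start were free.

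RefSeq gave an upstream window, from 250 bases before to 50 after the start, for 56 of the 61 genes. The motif CCAAT, a box bound by NF-Y, was present on either strand in all 18 H2A, 16 H2B and 10 H3 windows and in 3 of 12 H4 windows, against 37.4% of all 32851 RefSeq windows. The TATA box form TATAAA was present in 31 of 56 windows (55.4%, against 13.6% of all). The octamer ATTTGCAT, which binds POU factors and is known from H2B promoters, was present in 7 of 18 H2A and 6 of 16 H2B windows and in 0 of 10 H3 and 0 of 12 H4 windows, against 1.74% of all. These windows were searched for the letters as written and their reverse complements, and none of the 3 motifs contains another. In the upstream sequence of Hist2h2ac shown earlier, CCAAT or its complement began 166, 111 and 83 bp before the start, the octamer 200 bp and TATAAA 42 bp before it. The 200 bases of Hist4h4 held none of the 3. Such matches describe the sequence and do not show that a factor binds.

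By cluster, peaks in the gene were found in 8 of 48 Hist1 genes (16.7%), 3 of 10 Hist2 genes (30.0%), 1 of 2 Hist3 genes and the single Hist4 gene. The share was 48.6% for all coding genes, 47.0% for those on chromosome 13 and 17.9% for other coding genes of at most 2 kb. The Hist1 genes form a pair of runs on chromosome 13 when genes less than 200 kb apart are joined. In the first, from 21715763 to 22043676 with 22 core histone genes, 6 genes had a peak in the gene (27.3%). In the second, from 23531050 to 23934851 with 26 genes, 2 had one (7.69%), Hist1h2bc and Hist1h2ba. Peak density was nevertheless alike, with 30.5 peaks per Mb in the first run and 32.2 in the second, against 26.8 on chromosome 13. Of 10 peaks in the first run, 6 were in core histone genes, 1 in another coding gene and 3 in no coding gene. Of 13 in the second run, 2 were in core histone genes, 4 in linker histone genes, 1 in another coding gene and 6 in no coding gene. Of the last, 5 lay together upstream of Hist1h2be, with midpoints from -14488 to -26316 bp of its start and scores of 56.02 to 79.71. The other, at 23862229 to 23863189, scored 177.55, above every peak in a core histone gene. The 3 peaks of the first run in no coding gene scored 147.1, 122.07 and 51.86.

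**Figure D3:**
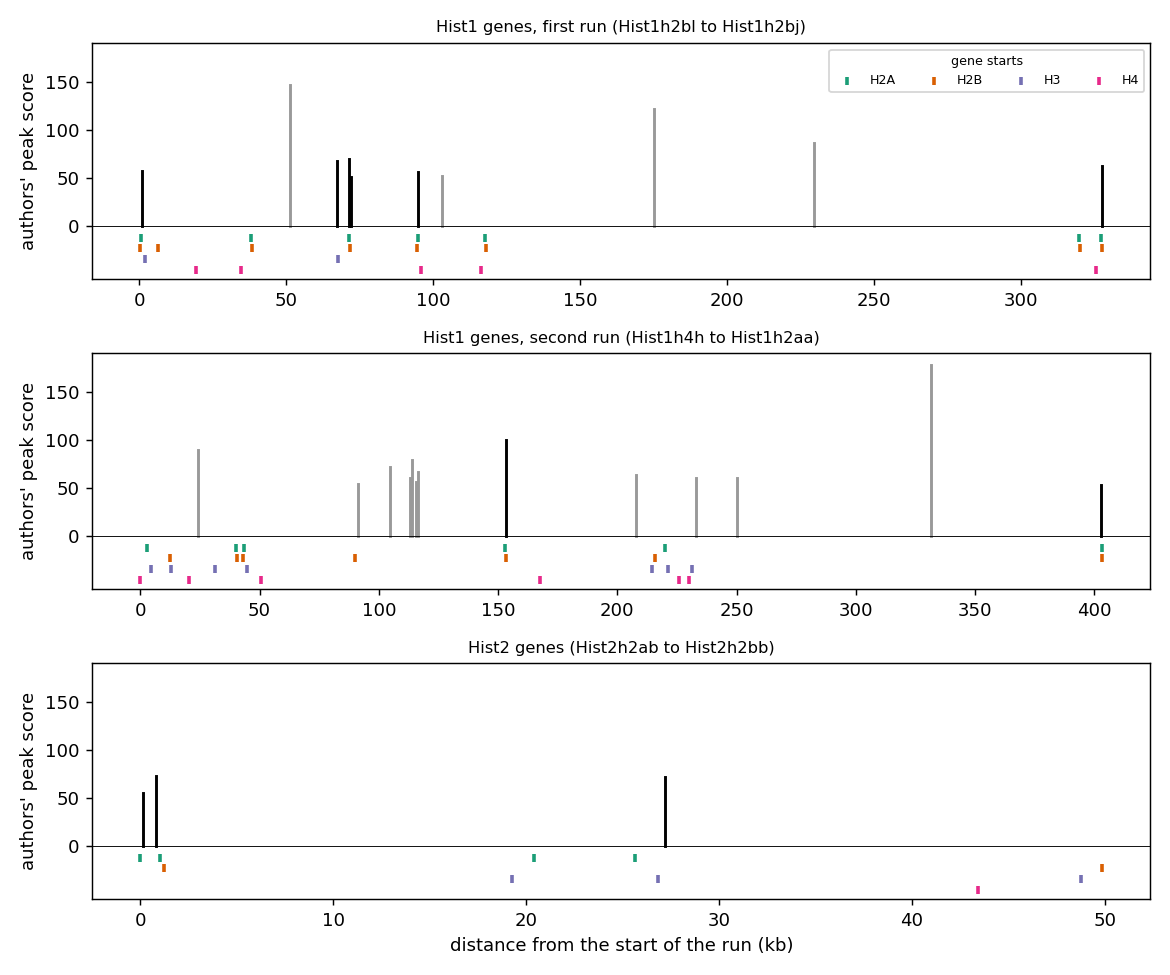
Authors' peak score (vertical lines) along both runs of Hist1 genes and the Hist2 run, against distance from the start of the run in kb. Black lines are peaks in core histone genes, grey lines are other peaks, and coloured marks below 0 are gene starts by type. The first Hist1 run has 6 peaks in core histone genes and the second 2.

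The first run held the densest group of peaks at core histone genes. Hist1h3i, an H3 gene, had a peak over its whole coding sequence at 21782913 to 21783439 (score 68.27). The pair Hist1h2an and Hist1h2bp lay next to it, with peaks at 21786747 to 21787376 and 21787378 to 21787947. With 3 peaks within 10 kb each, these genes had the highest densities of core histone genes over the gene and 10 kb on each side. The densities were 14.7 peaks per 100 kb for Hist1h2an and Hist1h3i and 13.8 for Hist1h2bp. Hist1h4m had 9.80 through peaks outside the gene, the highest value among H4 genes. Between Hist1h4j and Hist1h2bn, 4 genes in a row (Hist1h4j, Hist1h4k, Hist1h2ak and Hist1h2bn) had 0 peaks within 10 kb. The same was true of Hist1h4n, Hist1h2ap and Hist1h2br at the other side of the peak group. Their coding sequences are identical to those of Hist1h4m, Hist1h2ao and Hist1h2bq, which had peaks within 10 kb. How reads were placed between these copies is unknown. In all, 23 core histone genes had 0 peaks within 10 kb.

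In the second run, TH2B, encoded by Hist1h2ba at 23933773 to 23934156, had a peak at 23933639 to 23934123 with a score of 52.95, above 10.2% of the list. It covered 91.3% of the coding sequence. Hist1h2aa, which encodes TH2A from the opposite strand, had no peak in the gene, and the same peak lay with its midpoint at -581 bp of its start. Hist1h2bc, a replication-dependent H2B gene in the same run, had a stronger peak over its coding sequence (100.28). A stretch of 120 coding bases near the middle of both genes is shown, paired from the last codon, with capitals where they differ.
Hist1h2ba coding bases 124 to 243, chr13:23933914-23934033, minus strand: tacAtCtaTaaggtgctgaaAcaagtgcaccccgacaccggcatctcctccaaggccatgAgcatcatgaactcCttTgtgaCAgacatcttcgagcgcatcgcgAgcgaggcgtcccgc
Hist1h2bc coding bases 121 to 240, chr13:23684352-23684471, plus strand: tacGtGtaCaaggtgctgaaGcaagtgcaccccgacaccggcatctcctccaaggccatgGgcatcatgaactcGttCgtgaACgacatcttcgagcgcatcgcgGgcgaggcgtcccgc
They differed at 10 of these bases and at 48 of 378 paired bases (87.3% identity). Of the 36-base stretches of Hist1h2ba, 41.3% occurred in another core histone gene, against 100% of those of Hist1h2bc.

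The Hist2 genes, at 96219865 to 96270132 on chromosome 3, had 3 peaks. Hist2h2ab (55.33) and Hist2h2ac (72.79), H2A genes that lie tail to tail within 1 kb, each had a peak over the coding sequence. Hist2h2be, an H2B gene, had the peak of Hist2h2ac near its start and none in the gene. Hist2h3c1, an H3 gene, had the third peak. Hist2h3c2, Hist2h2aa2 and Hist2h2aa1 had that peak within 10 kb, and Hist2h4, Hist2h3b and Hist2h2bb had none. Of the Hist3 genes on chromosome 11, Hist3h2ba had a peak over the whole gene (58948894 to 58949560), and Hist3h2a had that same peak within 10 kb.

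Within 10 kb of core histone genes, all peaks but 1 lay in a histone gene. Of the 18 peaks within 10 kb, 13 lay in a core histone gene, 4 in a linker histone gene and 1 in no coding gene (score 51.86). Core histone genes thus held 72.2% of the peaks. They made up 97.8 kb of the 488 kb searched with Hist1h2be, whose annotation spans 37455 bp, and 12.3% of it without that gene. An overlap of 1 bp placed a peak in a gene, so the share of sequence is no expected share of peaks. For all coding genes, 28426 of 34190 distinct peaks within 10 kb lay in such a gene. Among genes of at most 2 kb the counts were 11 of 15 for core histone genes and 284 of 1102 for the others. These differences were not tested. Linker histone genes of the Hist1 group had a peak in 4 of 6 genes, at Hist1h1d (89.82), Hist1h1c (63.53), Hist1h1a (60.16) and Hist1h1e (54.01), and Hist1h1t and Hist1h1b had none. The peak in Hist1h1d was the highest-scoring one within 10 kb of Hist1h3e, Hist1h3f and Hist1h4f. The 9 other coding genes inside the runs had a start peak in 1 case, Zfp184 (86.39), and no peak in coding sequence.

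Base composition was high throughout these genes. Coding GC content ran from 55.6% to 70.3% with a median of 66.0%, against 51.9% over all coding genes. H2A genes had a median of 69.4%, H3 genes 67.4%, H4 genes 65.7% and H2B genes 62.7%. The shares of genes with a peak were equal in H2A and H2B genes, lower in H3 genes and lowest in H4 genes. Whether GC content and peaks are related across types was not tested. Genes with a peak had a median of 64.0% and genes without one 66.0%. Within types, the only H4 gene with a peak, Hist4h4, had the lowest coding GC content of the H4 genes (62.8%, against 63.1% to 66.7% in the others). H2A genes with a peak ran from 63.6% to 70.3% and those without from 61.0% to 70.3%. H2B genes with a peak ran from 58.5% to 64.0% and those without from 55.6% to 63.5%, so that the groups overlapped in both types.

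**Figure D4:**
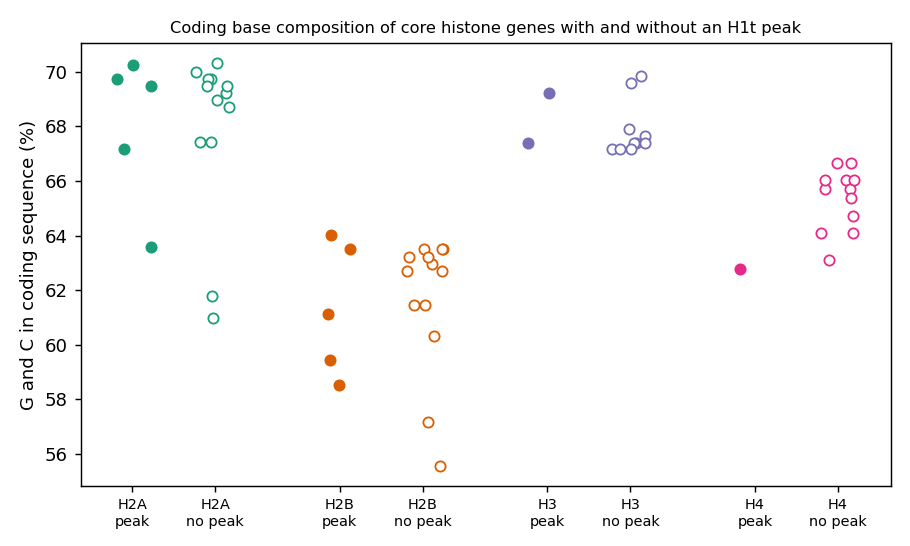
Share of G and C bases in the coding sequence (%) of each core histone gene, by type, with an H1t peak in the gene (filled circles) and without (open circles). Points are spread sideways for legibility. The groups with and without a peak overlap in H2A, H2B and H3, and the single H4 gene with a peak lies below the other H4 genes.

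At 60% GC or more, a smaller share of core histone genes than of other genes of like composition had a peak in coding sequence. Without regard to composition, 13 of 61 core histone genes had one (21.3%), against 29.4% of all coding genes. Among genes of at most 2 kb the shares were 20.8% of core histone genes and 17.4% of the others. The comparison by composition took genes with all coding sequence in 1 exon, 58 of them core histone genes, and other genes with 300 to 600 bp of coding sequence. At 60% to 65% GC, 5 of 20 core histone genes had a peak in coding sequence (25.0%), against 43 of 92 others (46.7%). At 65% or more the counts were 6 of 35 (17.1%) and 29 of 85 (34.1%). At 55% to 60% they were 1 of 3 core histone genes and 32 of 103 others (31.1%). Core histone coding sequences in this comparison had a median length of 385.5 bp, and those of the other genes medians of 430.5 to 504 bp in these bands. The median share of 36-base stretches found in another core histone gene was 79.0% for genes with a peak and 84.8% for those without, and its part in the difference was not tested.

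**Figure D5:**
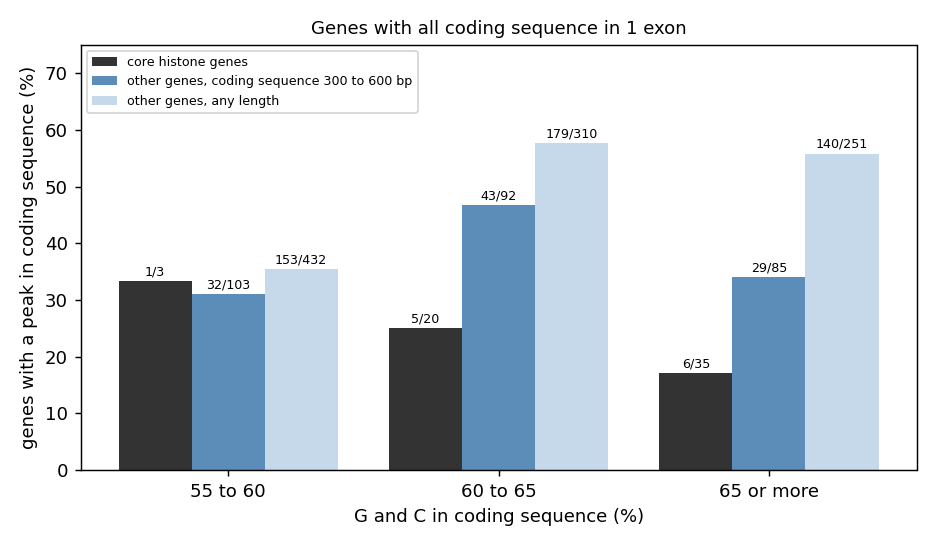
Share of genes with a peak in coding sequence (%), in bands of coding GC content, for core histone genes (black), other genes with 300 to 600 bp of coding sequence (blue) and other genes of any length (pale blue), all with coding sequence in 1 exon. The numbers above the bars give genes with a peak and genes in all. At 65% or more, 17.1% of core histone genes had one, against 34.1% of the other short coding sequences.

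Among genes that act on histone genes, their transcripts or their products, and among histone variant genes, the shares with a peak in the gene were near or below that of all coding genes. Of 15 genes for histone gene transcription and 3′ end processing, 6 had a start peak (40.0%, against 23.0% of all coding genes). They were Cpsf2, a subunit of the cleavage complex (192.15), Pou2f1, the octamer-binding factor Oct-1 (142.6), the cyclin E genes Ccne2 (139.74) and Ccne1 (79.67), Slbp, which binds the histone stem-loop (100.18), and Npat, the coactivator of histone gene transcription (53.61). Of 14 histone chaperone genes, 3 had one (21.4%), at Asf1a (58.91), Nap1l4 (57.77) and Nap1l1 (57.38). Of 12 replication-independent histone variant genes, 3 had one (25.0%), at H2afy2, a macroH2A gene (152.93), H3f3a, which encodes H3.3 (107.56), and H2afx, which encodes H2A.X (59.11). Peaks in the gene were found in 7, 5 and 5 genes of these lists (46.7%, 35.7% and 41.7%, against 48.6% of all coding genes). No list was tested, and their genes are longer than most core histone genes, with medians of 19571 bp, 23571.5 bp and 4243.5 bp.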

How the data were processed

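Bowtie 1.1.2 and the mouse build mm10 are named in the submitters' processing notes. The authors deposited 1 peak list, with a score per peak whose scale is not stated and peak names that begin with MACS. For the peak caller's version and threshold, the use of the input and the handling of multiply matching reads, no statement was found in the labels or the file. Read depth is unknown, so no counting interval is given.

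Of 76546 peaks, the 76434 on chromosomes 1 to 19, X and Y were compared with GENCODE M21 genes, counted from 1. Peaks had to overlap a gene, or a gene with 10 kb on each side, by at least 1 bp. Start peaks had their midpoint within 1 kb of the gene's 5′ end. The coding sequence of the longest annotated coding transcript gave GC content and 36-base stretches, which were searched on both strands in transcripts of genes elsewhere. Intervals were queried with Python 3.11.15, numpy 2.4.6 and pandas 2.3.3, figures used matplotlib 3.10.9, and the queries were tested on simulated peaks. Promoters are from RefSeq.

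With 1 library per group no test was made. Genes named are those with a peak in the gene or at the start, the 10 with the highest score within 10 kb, the 3 densest of each type, Hist1h2aa, Hist1h2ba, all Hist2, Hist3 and Hist4 genes, genes of other lists with a start peak, and the 10 strongest peaks nearby. Others were named after their values were seen. Genes and lists were chosen with earlier results of these data known, and the GC bands, gene pairs, short-gene shares and printed sequences after the peaks were seen. Of the variant list, H3f3c and H3f5 did not match a gene. Alternatives covered score, overlap, windows, flanks, shared sequence and run joining.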

Additional observations from a re-analysis of the deposited data

How the results depend on the processing

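Of 37 alternative values, 23 stayed within 1.5 times the reported one and 14 moved further. The counts depended mainly on the score. With peaks at or above the median score of 73.99, 2 core histone genes had a peak in the gene, 3 at the start and 6 within 10 kb, from 2 distinct peaks in genes and 3 within 10 kb, and the median density was 0 peaks per 100 kb. With scores of 100 or more, the counts were 2, 3 and 3 genes and 2 and 2 peaks, and the median density was again 0. The median of 4.76 peaks per 100 kb reflects single peaks in short windows. It was 0 with flanks of 5 kb, where 27 of 61 genes had a peak and most had none. With flanks of 20 kb 56 genes had one, and the median of 2.47 was the value of a single peak in the longer window. At the median score 38228 of all 76434 peaks remained, against 2 of the 13 in core histone genes. At scores of 100 or more 22422 of all peaks remained, against 2 of the 13. Why the peaks in core histone genes had low scores was not tested. Leaving out genes that share every 36-base stretch with another, using peak midpoints, other start windows, coding sequence alone, the mean, and other run joinings kept the remaining values within 1.5 times. No paired analysis was possible because the H1t library has no replicate. Read depth and the placing of reads from identical copies are unknown, and whether each gene without a peak could have been called was not tested.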

Other observations

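A microRNA gene is annotated over 17 of the 18 H2A genes described above and over 0 of 18 H2B, 0 of 12 H3 and 0 of 13 H4 genes. Of the 5 H2A genes with an H1t peak, 4 carry such an annotation. Whether the peaks cover the microRNA sequence was not examined.

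Of 3 histone pseudogenes with Hist symbols, Hist1h2al on chromosome 13 (51202727 to 51203065), apart from the clusters, had a peak in the gene with a score of 72.24. The others, Hist1h2aj and Hist3h2bb-ps, had none in the gene and 1 each within 10 kb.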
